A study of Mus musculus with 24 samples.

Results

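The comparison described here set the hippocampal mRNA of neonatal mice given the higher dose of morphine (MS5, 5 mg/kg) against that of mice given the lower dose (MS2, 2 mg/kg). It used 10 of the 24 samples of the series, chosen by their labelled dose: 5 MS2 arrays and 5 MS5 arrays. Both groups were C57BL/6 pups labelled male, killed on P9, and both went through the same stress protocol from P5: daily separation from the dam, apnea produced with nitrogen and then oxygen, and subcutaneous injections of morphine. The groups therefore differed in the labelled dose, and stress without morphine was not analysed here. The 5 untreated control arrays (Con), from pups of the same strain, labelled sex and age with minimal handling, had neither morphine nor stress, and their levels are given beside the results. Per the study's methods each array held RNA of 1 animal, with the hippocampi of both sides pooled.

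Morphine acts at opioid receptors, which couple to inhibitory G proteins on neurons. The hippocampus lies against the lateral ventricle. The choroid plexus, a sheet of epithelium over leaky capillaries in that ventricle, secretes cerebrospinal fluid by moving ions and water from blood to ventricle and releases transthyretin and other carrier proteins. A hippocampal dissection can carry choroid plexus, meninges and neighbouring brain regions with it. In such bulk tissue, fewer cells of a type and less RNA per cell cannot be told apart.

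With all 10 arrays, most of the genes that passed the threshold used here were lower in MS5, and genes of the choroid plexus led them. Of 55681 probesets, 72 (0.129%) passed a fold change of 1.5 with an unadjusted limma p under 0.05. The 10 that were higher in MS5 made up 0.018% of those tested, and the 62 that were lower made up 0.111%. None had a Benjamini-Hochberg adjusted p under 0.05 in limma, where the smallest adjusted p was 1, and 2211 probesets had an unadjusted p under 0.05, 959 of them higher and 1252 lower. The split of the probesets past both limits depended on the processing and the slide. It was 101 higher and 269 lower with a background offset of 0, 173 and 419 with processed signals scaled to the 75th percentile, 324 and 69 on slide 1 alone and 188 and 125 on slide 2 alone. Without MS5 replicate 14 it was 5 and 10, and without MS5 replicate 9, the array described next as going against its label, most were higher, 23 against 16. Most were also higher without MS5 replicates 9 and 14 together (15 and 7) and without MS2 replicate 4 and MS5 replicate 9 together (90 and 33). Genes of the choroid plexus list gave 29 of the 62 lower probesets and 22 of the 46 lower genes that carried a symbol. The higher side held 9 genes, among them Retnla and Ccl8, which are secreted by macrophages in inflamed tissue. Below, "past the threshold" means 1.5-fold with an unadjusted p under 0.05. With all arrays in the fit, every adjusted p in limma was above 0.05, while on slide 1 alone 40 probesets were under it.

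Some arrays stood apart, and values without them are given beside the results that they moved most. The array of MS2 replicate 4 had a median correlation with the others of 0.9898, against 0.9955 to 0.9975 on the remaining 14 mRNA arrays. Its mean over 18 genes of hippocampal principal neurons was 9.85 (log2), against 11.47 to 11.61 on the other MS2 arrays, and its mean over 22 developmental regulators of hypothalamus and thalamus was 9.87, against 8.02 to 8.27. MS5 replicate 9 went against its label: Xist, the RNA of the inactive X chromosome, was 11.34 there and 5.89 to 6.08 on all other arrays, and the Y-linked Ddx3y was 6.24 against at least 11.01. MS2 replicate 5 was dimmer, with a median spot signal of 58.2 against 121 to 154 on the other 14 arrays. The arrays came from 2 slides, each scanned once, with MS2 replicates 1, 3 and 7 and MS5 replicates 8 and 13 on slide 1, and MS2 replicates 4 and 5 and MS5 replicates 9, 12 and 14 on slide 2.

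The array reports each mRNA through a probe of 60 bases. The first 30 bases are printed for the probes on which the results turn, as they stand in the scanner files, with their mm9 positions. They are the choroid plexus genes Aqp1 and Folr1, Adh1, which was the one gene past the threshold with no overlap between groups, Retnla, which had the largest difference among the higher genes past the threshold, and both probes of the mu opioid receptor gene Oprm1.
Aqp1 (chr6:55298480-55298539, + strand): ctgtgtatgtttctttgcaattgaatttca
Folr1, brighter probe (chr7:109006846-109006905, - strand): gtggtggggctctgacagcctctttaataa
Folr1, dimmer probe (chr7:109016972-109017031, - strand): ctgggctttttcctgtgctccgagtaggtg
Adh1 (chr3:137952821-137952880, + strand): gtttccgttggacccgttaattacccatgt
Retnla (chr16:48844447-48844506, + strand): gatgaatctaacaaaaactgcagtctcaat
Oprm1, brighter probe (chr10:3308332-3308391, - strand): ataaccctaatagatgctaaacacacacac
Oprm1, dimmer probe (chr10:3516154-3516213, - strand): gcctgaacccagttctttatgcgttcctgg
Both Folr1 probes were lower in MS5. The brighter Oprm1 probe, whose printed part ends in a run of CA repeats, lies 208 kb from the dimmer one. The differences of the pair were -0.02 (SE 0.12) and 0.15 (SE 0.09).

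Genes of the choroid plexus were lower in MS5 throughout the list. All 39 genes of a choroid plexus list had a lower mean in MS5 than in MS2, with a median difference of -0.88 (log2, MS5 minus MS2), and 22 of the 39 were past the threshold. Over all 22232 genes with 1 probeset each, the median difference was -0.0009, 50.5% were lower, and 45 were past the threshold on the lower side. The list was drawn up with earlier results of these data known. It holds genes that the study reported as lower in MS5 than in control, among them Aqp1, Folr1 and Cldn2. The counts for the list were thus partly set by the choice of its members. The mean of the list on single arrays was 10.71 to 11.26 (log2) in MS2, with a group mean of 10.95 ± 0.26 (SD, n = 5), and 10.67 to 11.51 in Con, with a group mean of 11.11 ± 0.36. In MS5 it was 10.80 on replicate 8, 9.47 on replicate 9, 11.01 on replicate 12, 10.41 on replicate 13 and 8.87 on replicate 14, a group mean of 10.11 ± 0.91. Replicates 9 and 14 were thus far below every MS2 and Con array, while replicates 8 and 12 lay among them.

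**Figure D1:**
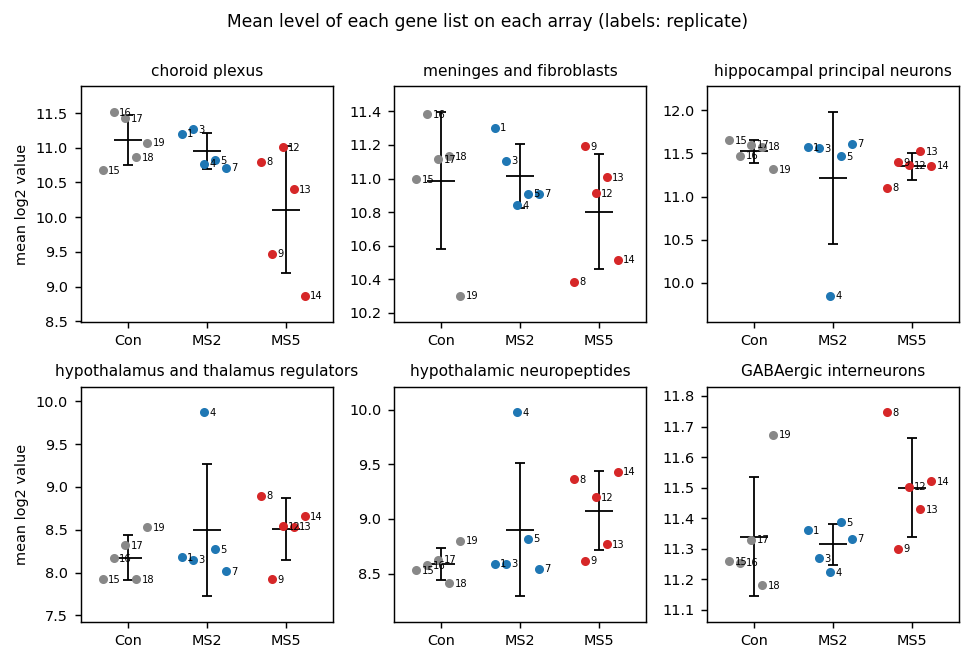
Mean level of 6 gene lists (log2, y axis) on each Con, MS2 and MS5 array, 1 point per array labelled with its replicate number. MS5 replicates 9 and 14 are the lowest points of the choroid plexus panel, at 9.47 and 8.87, and MS2 replicate 4 stands apart in the panels of hippocampal principal neurons and of hypothalamus and thalamus.

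Ion and water transport genes were lower, with a median close to that of the whole list. Of 11 channels, transporters and enzymes of acid-base balance, all 11 were lower, 6 of them past the threshold, with a median of -0.91. Aqp1, the water channel of the apical membrane, was 12.08, 12.41, 11.69, 12.12 and 11.64 (log2) on MS2 replicates 1, 3, 4, 5 and 7. On MS5 replicates 8, 9, 12, 13 and 14 it was 11.81, 9.39, 11.76, 11.16 and 7.68, against a Con mean of 11.84 ± 0.57 (SD, n = 5). MS5 replicates 9 and 14 were the low arrays, and replicates 8 and 12 overlapped with MS2. The difference of Aqp1 was -1.63 (SE 0.63, two-sided exact permutation p = 0.0476).

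Kcne2, a subunit of potassium channels of the epithelium, was 11.79 to 12.79 on MS2 arrays and 11.99, 9.65, 12.46, 11.35 and 7.51 on MS5 replicates 8, 9, 12, 13 and 14. Its difference was -1.61 (exact permutation p = 0.111). The same arrays were low for Kcnj13, an inwardly rectifying potassium channel, which differed by -1.18 (exact permutation p = 0.0635) and by -1.01 on its second probe. Also past the threshold were the sodium bicarbonate cotransporter Slc4a5 at -1.16, the chloride channel protein Clic6 at -1.10 and the osmosensitive cation channel Trpv4 at -0.91. The carbonic anhydrases Car14 and Car12, with -0.70 and -0.42, were not past it.

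Secreted proteins and the extracellular matrix formed a group of equal size, in which 11 of 11 genes were lower and 6 were past the threshold, with a median of -0.88. Transthyretin, Ttr, which carries thyroid hormone and retinol-binding protein, was 17.75 to 18.05 on MS2 arrays. It was 17.50 to 17.92 on MS5 replicates 8, 12 and 13, 15.93 on replicate 9 and 12.84 on replicate 14. The mean difference of -1.45 did not pass the threshold (limma unadjusted p = 0.0631), and the MS5 arrays spread over a wider range than that. Enpp2, the enzyme that makes lysophosphatidic acid, differed by -1.03, the growth factor antagonists Wfikkn2 and Sostdc1 by -0.97 and -0.93, the sulfatase Sulf1 by -0.92 and coagulation factor F5 by -0.88. The collagen Col8a1 was also past the threshold at -0.69. Other probes of Wfikkn2 differed by -0.72 and 0.02. Igf2, which choroid plexus and meninges both make, was at -0.54 with an unadjusted p of 0.168 in limma.

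Among receptors and other membrane proteins, 7 of 7 were lower and 3 were past the threshold. Folr1, the folate receptor that takes folate into cerebrospinal fluid, had the largest difference among the lower genes past the threshold. Its brighter probe gave 13.71, 13.91, 13.12, 13.67 and 13.04 on MS2 replicates 1, 3, 4, 5 and 7 and 13.34, 10.87, 13.45, 12.55 and 9.09 on MS5 replicates 8, 9, 12, 13 and 14. The Con mean was 13.86 ± 0.52 (SD, n = 5). The groups overlapped through MS5 replicates 8 and 12, and the difference was -1.63 (SE 0.65, exact permutation p = 0.0635). The dimmer Folr1 probe differed by -0.999. Steap1, which encodes a membrane protein, differed by -1.07 (exact permutation p = 0.0476). Kl, which encodes klotho, the coreceptor of FGF23, was at -0.66 and not past the threshold. The prolactin receptor gene Prlr was at -0.17.

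The 3 transcription factors of the list were all past the threshold. Otx2, which choroid plexus epithelium needs throughout life, was 12.07, 12.18, 13.18, 11.48 and 11.26 on MS2 replicates 1, 3, 4, 5 and 7 and 11.68, 9.24, 11.91, 11.40 and 9.43 on the MS5 arrays in the order given above. Its difference was -1.31 (exact permutation p = 0.111). The highest MS2 value came from replicate 4, the array with high levels of hypothalamic and thalamic genes. Otx2 was no longer past the threshold without that array, at -1.02, or without MS5 replicate 9, at -0.93. Lmx1a and Msx1, factors of the dorsal midline, differed by -0.83 and -0.64. Of the epithelial structure genes, the keratins Krt18 and Krt8 differed by -1.10 and -0.94, and the tight junction gene Cldn2 differed by -1.02 without passing the threshold (limma unadjusted p = 0.0709). The calmodulin-like gene Calml4 was at -1.09 and past it. A second Cldn2 probe differed by -0.42. The sorting of the list by role was made after the values were seen.

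**Figure D2:**
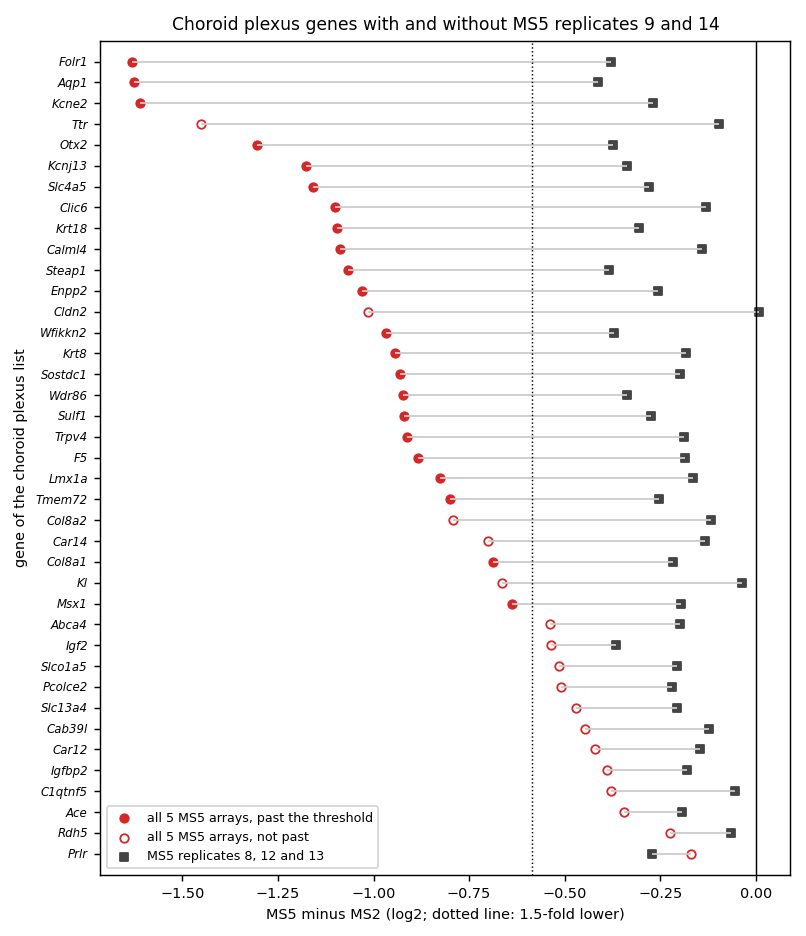
Difference of MS5 minus MS2 (log2, x axis) of 39 choroid plexus genes (y axis), as circles over all 5 MS5 arrays, filled where past the threshold, and as squares over MS5 replicates 8, 12 and 13 only. The dotted line marks 1.5-fold, and all 39 circles lie below 0, whereas the squares lie between -0.41 and 0.01.

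The lower mean in MS5 rested on some of its arrays. MS5 replicate 14 was the lowest of the 10 arrays for 32 of the 39 genes and replicate 9 for 4, and for 35 genes these 2 were the lowest pair. Replicate 14 lay a median of -2.08 (log2) from the MS2 mean, replicate 9 a median of -1.56 and replicate 13 a median of -0.55. For 29 of the 39 genes replicate 13 was below all 5 MS2 arrays. Replicates 8 and 12, at medians of -0.15 and 0.04, were below all MS2 arrays for 5 and 2 genes. The standard deviation was larger in MS5 than in MS2 for 34 of the 39 genes. Without MS5 replicates 9 and 14, a choice made after seeing the data, 38 of 39 genes were still lower, by a median of -0.20, and 0 were past the threshold.

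Markers of neighbouring tissues were low on partly different arrays. The mean of 20 genes of meninges and fibroblasts was 10.84 to 11.30 (log2) on MS2 arrays, 11.19 and 10.52 on MS5 replicates 9 and 14, and 10.39 on MS5 replicate 8. The mean of 10 red blood cell genes was 11.58 to 11.70 on MS2 arrays, 11.44 and 11.04 on MS5 replicates 9 and 14, and 11.33 to 11.72 on the other MS5 arrays. All 20 meningeal genes were lower in MS5, with a median of -0.18, and 1, the serine protease Fap, was past the threshold at -0.76, and at -0.95 without MS2 replicate 4. Fap was lowest on MS5 replicate 14, at 8.59 against 9.54 to 10.05 on the other MS5 arrays. It fell below 1.5-fold, to -0.51, without that array, and to -0.40 without MS5 replicates 9 and 14. On slide 2 alone 12 of the 20 were lower. Of 30 genes of ependymal cells and motile cilia, the ciliated cells that line the same ventricle, 14 were higher and 16 lower with a median of -0.01, and 0 were past the threshold. What these levels contributed to the choroid plexus difference was not tested. The difference had the same sign on each slide: the median of the 39 genes was -0.44 on slide 1, -1.06 on slide 2 and -0.84 with the slide as a block. Aqp1 differed by -0.56 and -2.29 on slides 1 and 2, and Folr1 by -0.61 and -2.26.

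Promoters are shown for 2 choroid plexus genes whose mRNAs were low on the same arrays, and, for comparison, for the macrophage genes described further on. Each is the 250 bases before the transcription start from RefSeq (GRCm38.p6), 5′ to 3′ on the gene's strand. Capitals mark TATAAA, the TATA box, and CCAAT, the box bound by NF-Y, on either strand.
Kcnj13 (chr1:87394730-87394979, - strand): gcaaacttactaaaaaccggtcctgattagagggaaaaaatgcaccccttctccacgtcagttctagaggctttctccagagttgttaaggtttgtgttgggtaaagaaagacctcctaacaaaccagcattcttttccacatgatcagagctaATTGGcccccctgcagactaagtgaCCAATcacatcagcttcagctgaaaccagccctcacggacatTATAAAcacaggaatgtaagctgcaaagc
Aqp1 (chr6:55336049-55336298, + strand): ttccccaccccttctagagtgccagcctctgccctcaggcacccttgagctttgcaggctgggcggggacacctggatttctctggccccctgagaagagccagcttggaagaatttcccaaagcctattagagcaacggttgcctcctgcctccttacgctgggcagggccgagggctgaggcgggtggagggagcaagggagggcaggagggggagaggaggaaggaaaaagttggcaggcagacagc
Retnla (chr16:48842359-48842608, + strand): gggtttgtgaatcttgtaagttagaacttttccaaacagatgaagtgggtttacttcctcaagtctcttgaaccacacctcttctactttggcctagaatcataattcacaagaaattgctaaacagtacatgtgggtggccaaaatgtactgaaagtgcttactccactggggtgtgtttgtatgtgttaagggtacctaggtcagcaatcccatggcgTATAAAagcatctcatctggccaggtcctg
Ccl8 (chr11:82114935-82115184, + strand): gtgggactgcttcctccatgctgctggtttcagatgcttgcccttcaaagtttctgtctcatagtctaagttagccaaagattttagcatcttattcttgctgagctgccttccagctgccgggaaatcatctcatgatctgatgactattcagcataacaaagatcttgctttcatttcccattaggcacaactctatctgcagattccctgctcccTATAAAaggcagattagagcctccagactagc
Kcnj13 held 1 TATAAA and 2 CCAAT, Retnla and Ccl8 each held 1 TATAAA, and Aqp1 held neither. Over 32851 RefSeq promoters of this length, 12.4% held TATAAA, 33.8% held CCAAT and 6.25% held TAATCC, the core that OTX2 binds. Of 21 choroid plexus genes past the threshold that had a current symbol, 16 had an entry, with 20 promoters. TATAAA stood in 3 of the 20, CCAAT in 3 and TAATCC in 1. A match is only a match of letters.

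Other genes lower in MS5 included some that the choroid plexus list did not hold. Of the 46 lower genes with a symbol, 20 were in no list. Among these, the largest differences were those of Ebf3, Prr32 at -1.38, Tex22 at -1.37, Trpm3 and Ecrg4, which encodes a secreted peptide precursor of choroid plexus epithelium, at -1.17. A second probe of Tex22 was well above background on 0 arrays and gave no measure of it. Trpm3, a heat- and steroid-gated cation channel, was 9.59 to 10.45 on MS2 arrays and 9.54, 7.56, 9.86, 9.09 and 7.09 on MS5 replicates 8, 9, 12, 13 and 14. The difference was -1.33 (exact permutation p = 0.0318), with -0.43 and -0.60 on other probes. Over the 62 lower probesets, MS5 replicates 9 and 14 were the lowest pair in 58.

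Ebf3, a transcription factor of neuronal differentiation, did not follow those arrays. It was 9.96, 9.72, 12.93, 9.80 and 9.49 on MS2 replicates 1, 3, 4, 5 and 7, and 7.93, 8.84, 8.58, 9.59 and 9.64 on MS5 replicates 8, 9, 12, 13 and 14, with a Con mean of 9.53 ± 0.49 (SD, n = 5). MS2 replicate 4 was the high array. The difference was -1.46 (exact permutation p = 0.0318), and -0.83 without MS2 replicate 4.

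Beta-defensins are small secreted antimicrobial peptides. Of 22 measured, 13 were well above background on none of the 10 arrays, and Defb11 and Defb9 were past the threshold. Defb11 was 11.41, 11.60, 10.56, 10.92 and 10.68 on MS2 replicates 1, 3, 4, 5 and 7 and 10.77, 8.38, 11.12, 10.02 and 7.24 on the MS5 arrays, in the same order as above, low again on replicates 9 and 14. Defb11 differed by -1.53 (exact permutation p = 0.0714) and Defb9 by -0.86. Without MS5 replicates 9 and 14, Defb11 differed by -0.40. The insulin gene Ins1 was at -0.65 and lowest on the same arrays, at 6.86 and 6.84, against 7.67 to 8.65 in MS2.

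Adh1 was the one gene past the threshold whose groups did not overlap. It encodes an alcohol dehydrogenase that also oxidizes retinol. Its level was 8.43, 8.32, 8.32, 8.34 and 8.28 on MS2 replicates 1, 3, 4, 5 and 7 and 7.52, 7.89, 7.94, 7.91 and 7.44 on MS5 replicates 8, 9, 12, 13 and 14. All 5 MS5 arrays lay below all 5 MS2 arrays, and the Con arrays, at 7.73 to 8.45, spanned the gap. The difference was -0.60, a fold change of 1.51 (SE 0.12 on the log2 scale, limma unadjusted p = 0.000225). Its exact permutation p was 0.00794, the smallest that 252 assignments allow. Every gene whose groups do not overlap has that p, so it adds nothing to the separation by which Adh1 was picked. The Adh1 difference was -0.63 on slide 1, -0.58 on slide 2 and -0.55 without MS5 replicates 9 and 14. The value on slide 2 and the value without that pair were below 1.5-fold. Adh1 lost the threshold in 6 of 22 alternatives, with its smallest difference, -0.52, without MS5 replicate 14. Over the whole array 346 probesets (0.621%) did not overlap between the groups, 133 with MS5 above and 213 with MS5 below. That share was below the fraction of 0.00794 that a random assignment of the arrays gives on average. In the choroid plexus list Pcolce2, a collagen-processing enhancer, was separated in the same way with a difference of -0.51 (exact permutation p = 0.00794), below 1.5-fold.

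**Figure D3:**
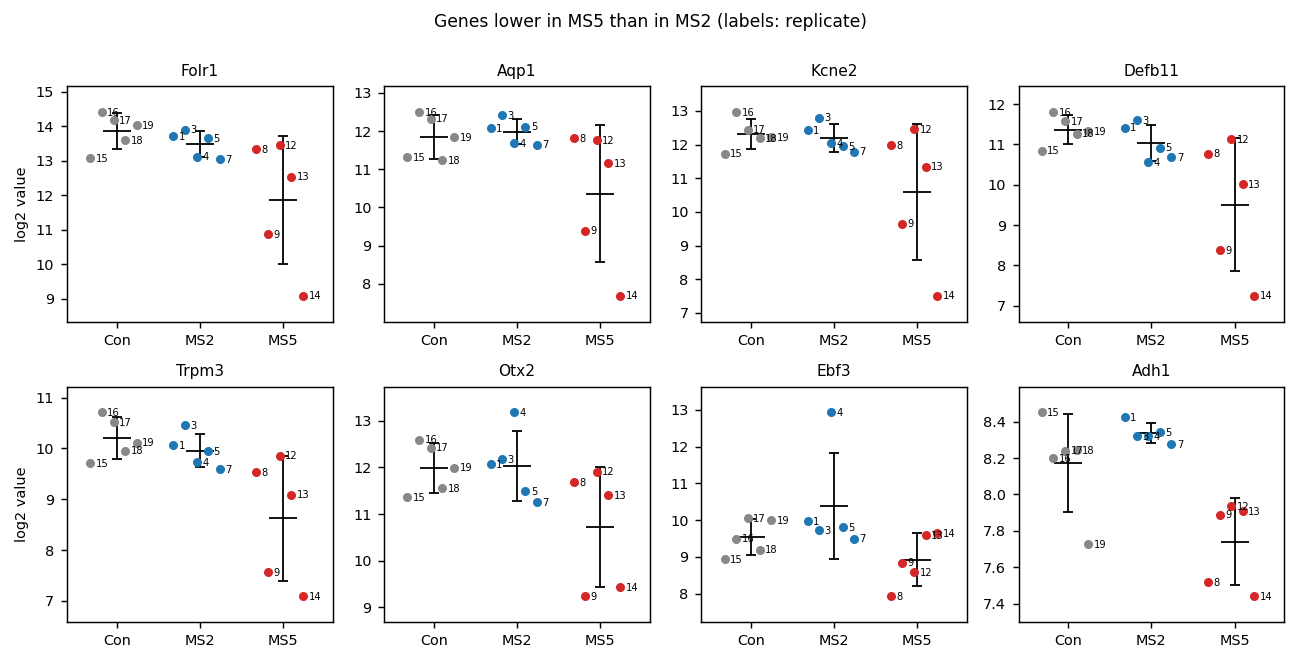
Level (log2, y axis) of 8 genes with a lower mean in MS5 on each Con, MS2 and MS5 array, 1 point per array labelled with its replicate number, with bars for the group mean ± SD (n = 5). Folr1, Aqp1, Kcne2, Defb11, Trpm3 and Otx2 are low on MS5 replicates 9 and 14, Ebf3 is high on MS2 replicate 4, and in Adh1 all MS5 points lie below all MS2 points.

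Among the genes past the threshold, Retnla and Ccl8 had the largest differences on the higher side. Retnla encodes a secreted resistin-like protein made by alternatively activated macrophages and by epithelium. It was 7.31, 7.19, 6.62, 8.22 and 6.78 on MS2 replicates 1, 3, 4, 5 and 7 and 8.59, 7.47, 11.56, 7.26 and 11.69 on MS5 replicates 8, 9, 12, 13 and 14, with Con arrays at 6.44 to 7.08. MS5 replicates 12 and 14 were far above all others, replicate 8 lay just above the highest MS2 array, and replicates 9 and 13 lay within the MS2 range. The difference was 2.09, a fold change of 4.26 (exact permutation p = 0.0635), and lay between 0.84 on slide 1 and 2.82 on slide 2. Ccl8, a chemokine that attracts monocytes, was 6.29 to 6.64 on MS2 arrays and 7.29, 6.38, 8.27, 6.59 and 8.64 on MS5 replicates 8, 9, 12, 13 and 14. It was high on the same arrays as Retnla and differed by 1.01 (exact permutation p = 0.0556).

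The ribonuclease gene Rnase2a, listed on the array as Ear11 and one of a family of near-identical genes that a probe may not separate, was 8.11 and 8.15 on MS5 replicates 12 and 14 and 6.75 to 7.13 on the other MS5 arrays. It differed by 0.61. Prok2, a secreted peptide of circadian output neurons, was also highest on these arrays, at 8.62 and 8.40, and differed by 0.62 (exact permutation p = 0.0952), but by -0.06 on slide 1 and by 0.49, no longer past the threshold, without MS2 replicate 4. Microglial genes did not share this pattern. Of 18 of them 16 were higher, by a median of 0.05, and 0 were past the threshold. In a list of 14 genes of alternatively activated macrophages and the resistin family, Retnla alone was past it, and the median was 0.03.

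Xlr4b, an X-linked imprinted gene expressed mainly from the maternal X chromosome, has close copies, among them Xlr4a, that a probe may not separate from it. Xlr4b was 6.17, 6.42, 6.95, 7.28 and 6.59 on MS2 replicates 1, 3, 4, 5 and 7 and 8.03, 6.75, 7.78, 7.66 and 7.46 on MS5 replicates 8, 9, 12, 13 and 14. The one MS5 array within the MS2 range was replicate 9, the array with Xist. The difference was 0.85 (SE 0.25, exact permutation p = 0.0318), and was 1.05 without that array, 1.45 on slide 1 and 0.22 on slide 2. Con arrays lay at 6.52 to 7.38. Xlr4a differed by 0.69, and by 0.22 on its second probe.

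Zar1l, which resembles the oocyte factor Zar1, and Dlx6os1, a noncoding RNA beside the forebrain interneuron genes Dlx5 and Dlx6, were higher in MS5. Zar1l was 6.61, 6.33, 6.45, 8.09 and 6.76 on MS2 replicates 1, 3, 4, 5 and 7 and 8.32, 7.31, 8.10, 7.40 and 7.77 on MS5 replicates 8, 9, 12, 13 and 14. Con replicate 19, at 8.48, was the highest of all. The difference was 0.93 (exact permutation p = 0.0397), with 0.82 on a second probe. Without the high MS2 replicate 5, Zar1l differed by 1.24, and without MS2 replicate 4 by 0.83, no longer past the threshold. Dlx6os1 differed by 0.84, and by 0.46 without MS2 replicate 4, where it was lowest at 7.28. It was 9.09 to 10.17 on MS5 arrays and 9.12 to 9.97 on Con arrays, highest there on replicate 19. Prg4, a lubricant glycoprotein, differed by 0.63 on one probe, and its other probe was not well above background on any MS2 or MS5 array.

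**Figure D4:**
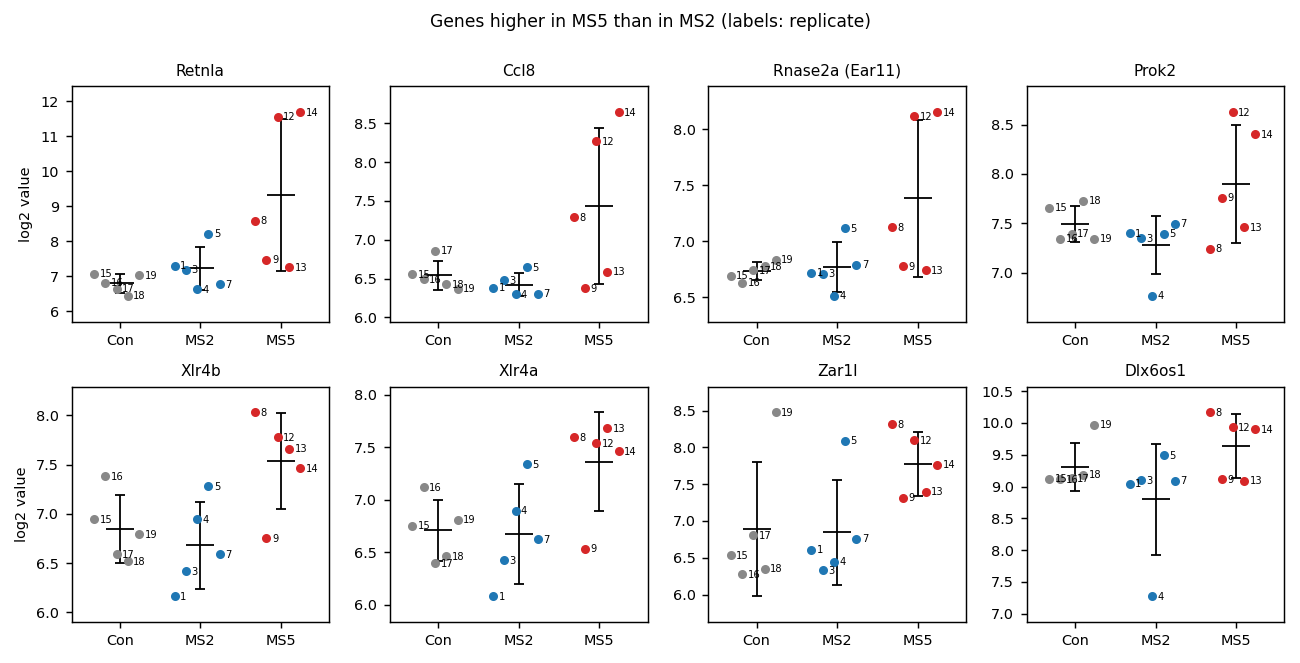
Level (log2, y axis) of 8 genes with a higher mean in MS5 on each Con, MS2 and MS5 array, 1 point per array labelled with its replicate number, with bars for the group mean ± SD (n = 5). Retnla, Ccl8, Rnase2a and Prok2 are highest on MS5 replicates 12 and 14, and the lowest MS5 point of Xlr4b is replicate 9.

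The opioid receptor genes were not past the threshold with all 10 arrays. Oprm1, the gene of the mu receptor through which morphine mainly acts, differed by -0.02 on its brighter probe, with a 95% interval of -0.27 to 0.23, and by 0.15 on the dimmer one. The MS2 means of these probes were far apart, at 16.22 and 6.32 (log2). The dimmer probe was well above background on 4 of the 5 MS2 arrays. Which of them measures the receptor mRNA was not settled, so no lack of change in that mRNA is shown. The delta receptor gene Oprd1 differed by 0.04 (interval -0.13 to 0.20), and the nociceptin receptor gene Oprl1 by -0.04 (interval -0.34 to 0.26). The interval for the kappa receptor gene Oprk1 was wide, -0.63 to 1.31 around 0.34 (exact permutation p = 0.556). Oprk1 was 7.44, 7.29, 9.58, 8.47 and 7.22 on MS2 replicates 1, 3, 4, 5 and 7 and 9.44, 7.39, 8.34, 7.91 and 8.63 on MS5 replicates 8, 9, 12, 13 and 14. Oprk1 was past the threshold at 0.84 with array weights, 1.36 on slide 1 and 0.97 without MS2 replicate 4 and MS5 replicate 9, but was -0.90 on slide 2, and it differed by 0.74 without MS2 replicate 4. These intervals are for the difference of the group means, with the standard error of the limma fit of all 3 groups. They do not span the values of single arrays.

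The opioid peptide precursors Pomc, Pdyn and Pnoc differed by -0.04, 0.11 and -0.11. Penk, the enkephalin precursor, was split within each group. It was 15.15 on MS2 replicate 5 and 11.51 to 12.68 on the other MS2 arrays, 15.58, 14.40 and 14.54 on MS5 replicates 8, 12 and 14 and 11.92 and 11.70 on replicates 9 and 13, and 14.85 on Con replicate 19. In each group the arrays with high Penk were those with the highest Zar1l. The Penk difference of 1.05 was within the spread between arrays (exact permutation p = 0.381). Of 30 genes of opioid receptor signalling, 18 were higher and 12 lower, with a median of 0.02, and 0 were past the threshold.

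The vasopressin gene Avp and the microtubule-severing gene Fign did not pass the threshold with all 10 arrays, but each did under 4 alternatives. Avp was 7.78, 7.26, 10.58, 8.73 and 7.0 on MS2 replicates 1, 3, 4, 5 and 7 and 11.99, 7.21, 12.47, 6.76 and 10.79 on MS5 replicates 8, 9, 12, 13 and 14, with Con arrays at 6.32 to 8.18. Levels were high on 3 MS5 arrays and on MS2 replicate 4, and the difference of 1.57 had an exact permutation p of 0.318. Avp differed by 2.15 without MS2 replicate 4, where it did not pass, and passed at 2.16 with array weights, 2.34 without MS5 replicate 13, 2.23 without MS5 replicate 9 and 2.81 without MS2 replicate 4 and MS5 replicate 9. Fign was 12.57 on MS2 replicate 4 and 7.72 to 8.15 on the other MS2 arrays. In MS5 it was 9.31 to 10.91. The 5 MS5 arrays were thus above 4 of the 5 MS2 arrays. Con arrays lay at 7.84 to 9.43, and the highest, replicate 19, was within the MS5 range. The Fign difference was 0.99 (exact permutation p = 0.365), -0.88 on slide 2, and past the threshold at 1.92 without MS2 replicate 4, 2.03 without MS2 replicate 4 and MS5 replicate 9, 1.66 with array weights and 2.64 on slide 1. Neuropeptides of the hypothalamus had a mean over 17 genes of 9.98 on MS2 replicate 4 and 8.54 to 8.82 on the other MS2 arrays, against 8.62 to 9.43 in MS5. The part of such neighbouring tissue in these differences was not tested.

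Neuronal and signalling lists had medians nearer to 0 and no member past the threshold. Of 19 genes of GABAergic interneurons, 17 were higher in MS5 by a median of 0.18 and 0 were past the threshold. Dlx5 was at 0.50 and the parvalbumin gene Pvalb at 0.60, while Calb2, which encodes calretinin, was at -0.33. Of 18 principal neuron genes 13 were higher by a median of 0.16, but the median was -0.26 without MS2 replicate 4. Of 26 glutamate receptor genes 13 were higher and 13 lower, and of 19 GABA receptor genes 10 were higher and 9 lower. Of 18 phosphodiesterases, which degrade cyclic nucleotides, 14 were higher by a median of 0.07. Of 14 death receptor pathway genes 11 were lower by a median of -0.10.

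Lists of stress-responsive genes also had no member past the threshold. Of 20 glucocorticoid-responsive genes 11 were higher and 9 lower with a median of 0.02, of 19 hypoxia-responsive genes 12 were higher and 7 lower, and of 20 immediate early genes 12 were higher and 8 lower. Of the 10 red blood cell genes 9 were lower by a median of -0.27 and 0 were past the threshold. The globin probe Hbb-bs, which may share signal with its near-identical relatives, was past it at -0.59 (exact permutation p = 0.0159). On this probe the Con arrays, at 11.29 to 13.01, spanned a wider range than the MS2 and MS5 arrays, at 11.40 to 12.67. Over the 27 lists, 22 had no member past the threshold, with medians from -0.27 to 0.18.

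**Figure D5:**
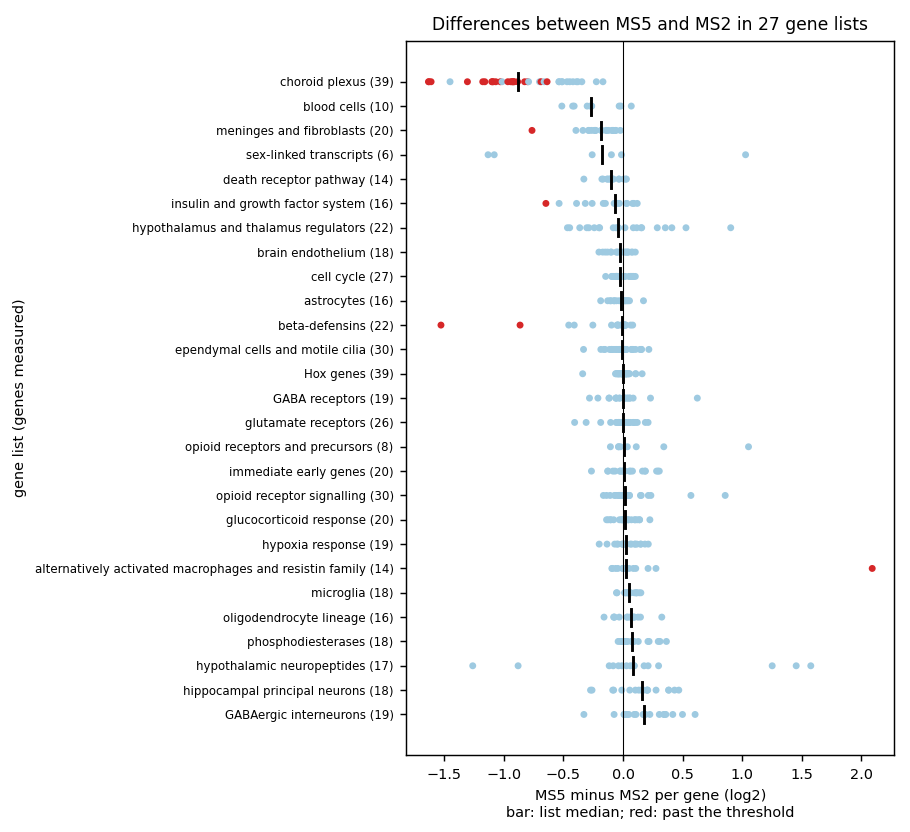
Difference of MS5 minus MS2 (log2, x axis) of each member of 27 gene lists (y axis), 1 dot per gene, red where past the threshold, with a black bar at the median of the list. The choroid plexus median of -0.88 stands left of the others, and 22 lists hold no red dot.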

How the data were processed

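RNA was hybridized to 15 Agilent arrays of 62976 spots with 1 colour, 5 per group. The deposited scanner files hold a spot intensity with no normalization between arrays, and the array design follows mm9. The authors adjusted background with normexp, quantile normalized the arrays (Agi4x44PreProcess) and deposited the result as log2 values. These were the values used here, after removal of control probes (55681 probesets, from a table with 55821 rows). The same steps on the deposited intensities, with an offset of 50, gave the table to within 5.0e-09. Quantile normalization forces equal distributions on all arrays, and the offset shrinks differences of dim probes.

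Groups came from the labels. All 3 were fitted together with limma 3.58.1 in R 4.3.3 (lmFit, eBayes; data.table at version 1.17.8), with adjustment over all probesets. Exact permutation tests were two-sided over the 252 assignments of 10 arrays. Lists used 1 probeset per gene, the brightest, and got no test. Genes were named by these rules: the higher genes past the threshold, the 15 largest lower ones, those with no overlap between groups, 7 genes that the study measured by PCR, up to 4 past the threshold per list, the opioid receptor genes, Xist and Ddx3y. Others were named after their values were seen. Members, lists and rules were chosen with earlier results of these data known. The procedure was tested on simulated data. The number of arrays limits the precision, and 9496 probes were well above background on none of the 10. RefSeq promoters were found for 34 of 40 named genes. The list of alternatives covered array weights, background, scaling, filtering, slides, probesets and left-out arrays, and leaving out 2 arrays together was added after seeing the data. The miR arrays were not used here.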

Additional observations from a re-analysis of the deposited data

Results flagged for a closer look

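Among 134 groups of 5 arrays (named genes and list means), 21 had 1 array whose gap to its nearest neighbour was more than 0.71 of the group's range, where chance gives about 1 in 20. MS2 replicate 4 gave 12 of the 21. Its gap was 0.862 of the range for Ebf3, 0.91 for Fign, 0.944 for Oprl1, 0.795 for Prok2, 0.8 for Dlx6os1 and 0.736 for Fap. For list means its gap was 0.917 for hippocampal principal neurons, 0.863 for regulators of hypothalamus and thalamus, 0.807 for hypothalamic neuropeptides, 0.812 for the hypoxia response, 0.764 for immediate early genes and 0.73 for the glucocorticoid response.

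MS5 replicate 9, labelled male, stood apart for Xist with a gap of 0.971, for Ddx3y with 0.955 and for the mean of the sex-linked transcripts with 0.938. Its gap was also 0.808 for Xlr4a and 0.765 for the mean of the astrocyte genes. The dim array of MS2 replicate 5 had a gap of 0.758 for Zar1l and of 0.714 for the mean of the phosphodiesterases. MS5 replicate 12 had a gap of 0.872 for Oprl1, and MS5 replicate 14 a gap of 0.746 for the mean of the hypoxia response genes.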

How the results depend on the processing

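The count of 72 probesets past the threshold (10 higher, 62 lower) was 159 (50 and 109) with limma's array weights, 370 (101 and 269) with a background offset of 0, 592 (173 and 419) with processed signals scaled by each array's 75th percentile, and 38 (7 and 31) in a fit of the 10 compared arrays. Slide 1 alone gave 393 (324 and 69), of which 40 had an adjusted p under 0.05 in limma, and slide 2 alone 313 (188 and 125). In the other alternatives 0 probesets had an adjusted p under 0.05. Leaving out 1 array gave 15 to 106 (5 to 30 higher, 10 to 101 lower), from 15 without MS5 replicate 14 and 33 without MS2 replicate 3 to 106 without MS5 replicate 12, with 39 without MS2 replicate 1 and 39 (23 and 16) without MS5 replicate 9. Leaving out MS2 replicate 4 and MS5 replicate 9 together gave 123 (90 and 33), and MS5 replicates 9 and 14 together 22 (15 and 7). The 22 choroid plexus genes past the threshold became 34 with array weights, 6 on slide 1, 2 on slide 2, 10 with the 10 arrays only, 3 to 31 with 1 array left out, 6 without MS2 replicate 4 and MS5 replicate 9, and 0 without MS5 replicates 9 and 14, where their median was -0.20.

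Signs turned mainly for genes near 0. With 1 array left out, Oprl1 ranged from -0.0817 to 0.127 (above 0 without MS2 replicate 4 or MS5 replicate 12), Oprm1 from -0.0979 to 0.0415 (above 0 without MS2 replicate 3 or 4 or MS5 replicate 9 or 13), Oprd1 from -0.022 to 0.0828 (below 0 without MS2 replicate 3 or MS5 replicate 13) and Xist from -0.0509, without MS5 replicate 9, to 1.31. Oprl1 was 0.0995 with array weights, 0.205 on slide 1 and 0.116 without MS2 replicate 4 and MS5 replicate 9. Oprm1 was 0.116 on slide 2, 0.0672 and 0.0321 with the 2 pairs of arrays left out and 0.0632 over all its probesets. On slide 2 Oprd1 was -0.0853, Oprk1 -0.904 and Fign -0.879, and on slide 1 Prok2 was -0.0638 and Xist -0.0060. Xist was -0.0468 without MS2 replicate 4 and MS5 replicate 9 and -0.0489 without MS5 replicates 9 and 14, and Cldn2 was 0.0085 without the latter pair. Of the results for single named genes under the alternatives, 635 kept direction and side of the threshold, 206 lost the threshold, 14 gained it and 24 changed sign. The causes were not tested. Probes near background have only a bound, so their differences are understated. No paired analysis was possible because the labels used here give no litter or repeat of the experiment, and the MS2 and MS5 arrays share no replicate number. An effect of litter could thus not be taken into account.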

Other observations

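On slide 1 alone, which holds MS2 replicates 1, 3 and 7 and MS5 replicates 8 and 13, the probesets with an adjusted p under 0.05 in limma included Slc6a4, the serotonin transporter gene, Gbx2 and Tcf7l2, transcription factors of the thalamus, Pvalb, Fign, Xlr4a and Xlr4b. Pvalb was 11.89 and 11.04 (log2) on MS5 replicates 8 and 13, 8.63 to 8.99 on the MS2 arrays of that slide, 12.09 on MS2 replicate 4 and 11.11 on Con replicate 19. These genes were named after their values were seen, and with all 10 arrays none of their probesets had an adjusted p under 0.05.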
